A study of Mus musculus with 15 samples.

Results

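The 9 genes of glycine cleavage and serine synthesis (Gldc, Amt, Gcsh, Dld, Shmt1, Shmt2, Phgdh, Psat1 and Psph) were taken by symbol from a table of 47069 mouse genes. Each symbol was found once. They were described in 12 libraries labelled PTS2, each made from 1 microdissected proximal tubule and falling into sets labelled m1, m2 and m3 of 4 libraries each, and in 3 libraries of whole kidney. All libraries came from male C57BL/6 mice aged 2 months, and the labels name no mutant allele and no treatment in any group. The labels do not say what the letter m stands for or that tubules of a set came from separate animals, so p-values measure only the spread between these samples, which may be technical. Levels are given in TPM (a share of all transcripts), a unit already scaled for transcript length and library total. TPM keep no sequencing depth, so the number of reads behind each value is unknown.

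The glycine cleavage system is a mitochondrial enzyme that splits glycine into carbon dioxide, ammonia and a carbon unit carried by tetrahydrofolate. GLDC removes the carboxyl group, the lipoyl protein GCSH carries the remainder, AMT hands the carbon to folate and DLD reoxidises the lipoyl arm. Serine hydroxymethyltransferase joins that carbon to a further glycine to give serine, in mitochondria (SHMT2) or in the cytosol (SHMT1). A separate route makes serine from the glycolytic intermediate 3-phosphoglycerate through PHGDH, PSAT1 and PSPH. The kidney is known as an organ that takes up glycine and releases serine, and proximal tubule cells carry out much of that exchange.

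Gldc was chosen by its measured difference between m3 and m1 in these data, and the other members were added as its pathway partners. Differences of Gldc among the 3 sets are therefore given as a description, with no test. All tests were fitted over the whole table on log2(TPM + 1) with limma, with Benjamini-Hochberg adjustment over all genes tested and a threshold of 0.05. All 9 members passed the filter of a mean of at least 1 TPM, and a log2 difference on this scale understates the change of low genes.

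Because the members differed so widely in level, the letters just upstream of 4 of them are shown: Gldc and Psat1, which were low in PTS2, and Dld and Shmt2, which were abundant. Each run holds the 250 bases before the start site in RefSeq's annotation of GRCm38.p6, 5′ to 3′ on the gene's strand, and capitals mark the CCAAT box (CCAAT or its reverse complement ATTGG). They lie, all on the minus strand, at chr19:30175442-30175691 (Gldc), chr12:31351472-31351721 (Dld), chr19:15925060-15925309 (Psat1) and chr10:127522445-127522694 (Shmt2). None of these 4 windows shares a base with an exon of the GENCODE M21 annotation. RefSeq lists 2 start sites for Psat1, and the first is shown.
Gldc: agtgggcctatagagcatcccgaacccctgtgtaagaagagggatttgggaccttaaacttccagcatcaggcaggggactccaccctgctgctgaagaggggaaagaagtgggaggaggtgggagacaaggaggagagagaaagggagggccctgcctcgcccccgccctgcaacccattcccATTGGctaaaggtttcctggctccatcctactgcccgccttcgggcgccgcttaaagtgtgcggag
Dld: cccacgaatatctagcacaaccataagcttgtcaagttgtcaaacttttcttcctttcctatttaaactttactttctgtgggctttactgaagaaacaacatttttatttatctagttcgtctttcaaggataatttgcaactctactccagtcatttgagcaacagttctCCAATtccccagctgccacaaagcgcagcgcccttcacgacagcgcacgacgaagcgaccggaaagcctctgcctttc
Psat1: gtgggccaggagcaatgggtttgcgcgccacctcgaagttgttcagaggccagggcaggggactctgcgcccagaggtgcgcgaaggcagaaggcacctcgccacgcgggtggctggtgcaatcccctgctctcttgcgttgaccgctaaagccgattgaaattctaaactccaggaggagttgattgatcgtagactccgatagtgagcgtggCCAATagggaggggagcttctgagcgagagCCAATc
Shmt2: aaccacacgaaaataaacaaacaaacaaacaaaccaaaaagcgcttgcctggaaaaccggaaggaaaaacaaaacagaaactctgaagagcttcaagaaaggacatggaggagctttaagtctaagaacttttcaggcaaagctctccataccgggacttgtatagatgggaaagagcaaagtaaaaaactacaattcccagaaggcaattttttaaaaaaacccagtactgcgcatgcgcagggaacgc

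The Gldc window had a GC content of 59.6% with 8 CpG, that of Psat1 59.6% with 16 CpG, that of Dld 43.6% with 10 CpG and that of Shmt2 40.8% with 7 CpG, against medians of 52.4% and 6 over 32851 windows of the same length. GC content did not order with level over all members: the window of the abundant Gcsh was at 64.4% with 18 CpG, and that of Phgdh, the lowest member in PTS2, at 44.0%. A CCAAT box stood 62 to 66 bases before the start of Gldc, on the reverse strand, and 74 to 78 bases before that of Dld. Psat1 held a pair of them, at 32 to 36 and 2 to 6 bases, and Shmt2 held none. Over both strands, CCAAT was in the windows of 8 of the 9 members and in 33.8% of all windows. The core that C/EBP and ATF factors bind (TGATGNAA, 3.45% of all windows), the cAMP response element (TGACGTCA, 1.55%) and the E-box (CACGTG, 6.02%) were in none of the members' windows. These matches are descriptions of letters.

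Within the glycine cleavage system, Gldc was the member that stood apart. In m1 it was at 6.63, 4.37, 6.18 and 17.0 TPM in replicates 1 to 4, in m2 at 3.23, 2.32, 6.13 and 7.69 TPM, and in m3 at 0.33, 0.38, 0.57 and 1.71 TPM. In whole kidney it was at 65.1, 72.5 and 89.7 TPM. Every tubule lay below every kidney library, and every m3 tubule below every tubule of m1 and m2. The gene lies on the minus strand at chr19:30098447-30175429 (GRCm38, GENCODE M21). The tubules averaged 4.71 ± 4.66 TPM (SD, n = 12) and the kidney libraries 75.8 ± 12.6 TPM (SD, n = 3), 16.1 times as high. The log2 difference, PTS2 minus kidney, was -4.16 ± 0.61 (SE; 95% interval -5.44 to -2.88; limma adjusted p = 2.52e-05), and 1.12% of the genes tested had a lower one. In bulk samples such as these, fewer cells of a type and less RNA per cell cannot be told apart.

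The other proteins of the same complex showed nothing comparable. Dld, whose product also serves the pyruvate, 2-oxoglutarate and branched-chain dehydrogenases, was the most abundant member in PTS2, at 223 to 317 TPM (median 290 TPM). It was at 286 to 297 TPM in whole kidney. Gcsh was at 211 to 265 TPM (median 238 TPM) in PTS2 and 217 to 266 TPM in kidney. Amt was low in both, at 5.32 to 8.57 TPM (median 7.54 TPM) in PTS2 and 6.45 to 7.63 TPM in kidney. The ranges of PTS2 and kidney overlapped for each of these 3 genes. Their log2 differences were -0.03 ± 0.08 for Dld (95% interval -0.20 to 0.15), 0.01 ± 0.07 for Gcsh (-0.15 to 0.16) and 0.05 ± 0.13 for Amt (-0.23 to 0.33), with limma adjusted p = 0.806, 0.956 and 0.773.

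These differences are relative to all genes, whose median log2 difference was -0.27 in TPM, -0.003 after median-of-ratios rescaling and 0.15 after quantile normalization. Under median-of-ratios rescaling Dld, Gcsh and Amt became higher in PTS2, by 0.27, 0.30 and 0.30 (limma adjusted p = 0.00215, 0.0218 and 0.0470). Under quantile normalization Amt was also higher, by 0.74 (limma adjusted p = 5.95e-05), and Gcsh was at -0.02. Gldc stayed lower in PTS2 under both.

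**Figure D1:**
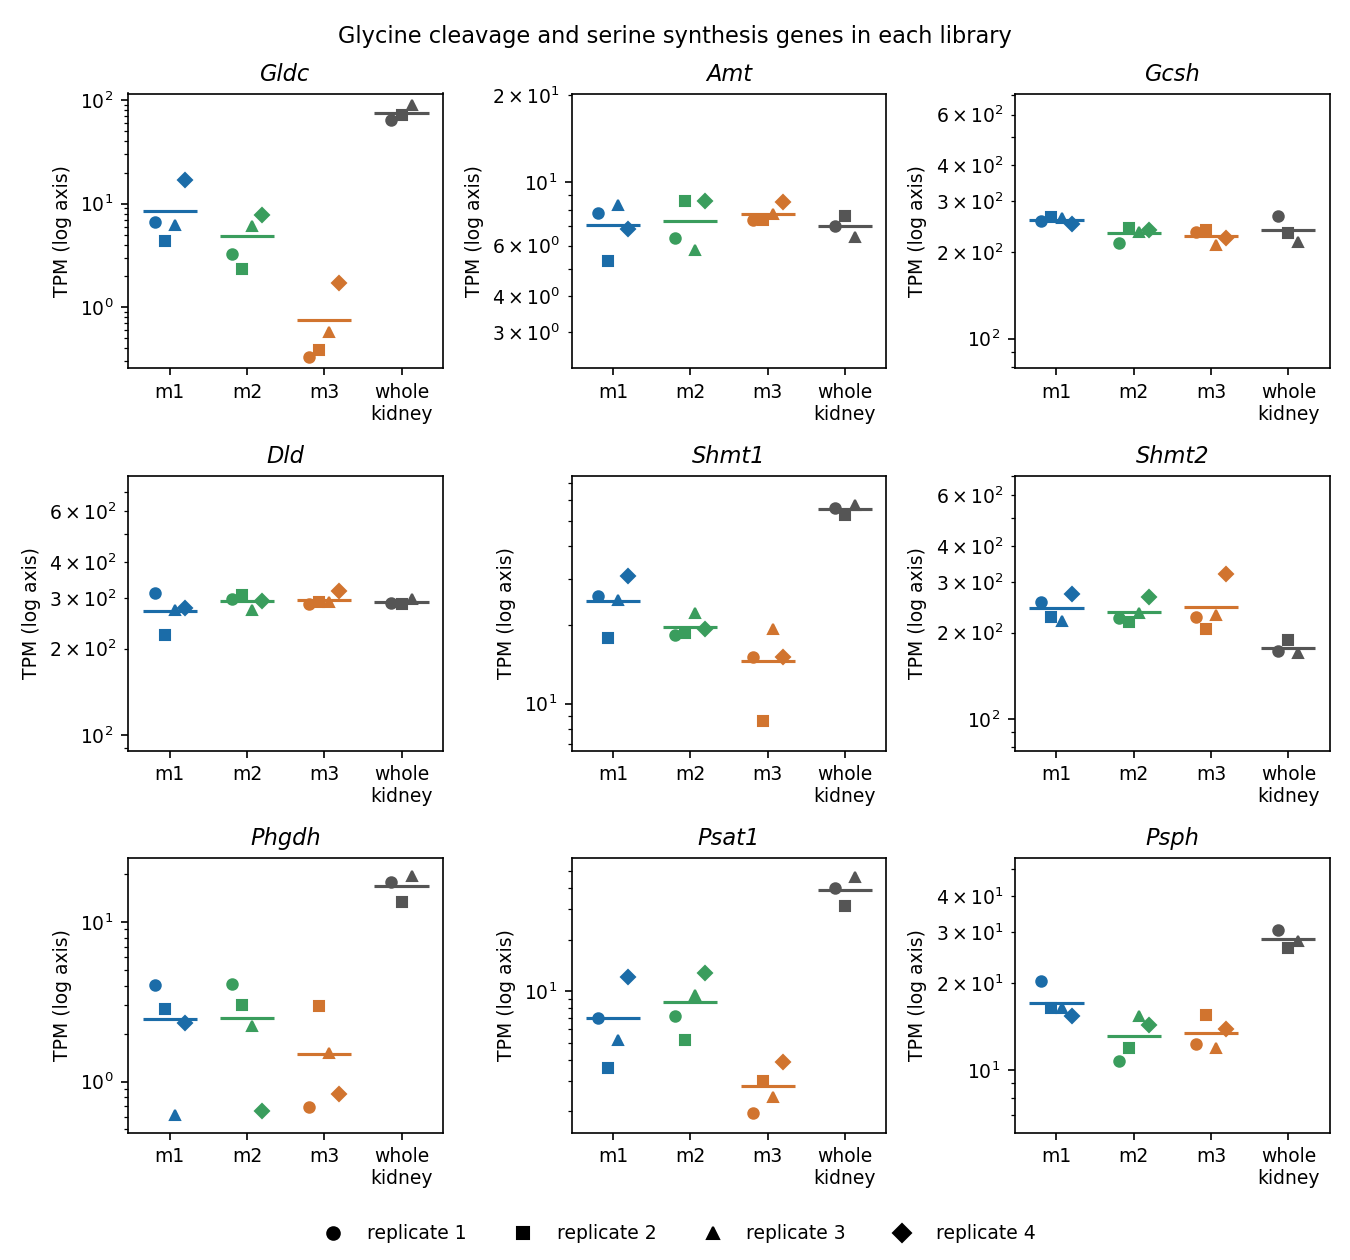
TPM (log axis) of each of the 9 members in every library, by PTS2 set and whole kidney, with 1 point per library and a bar at the group mean. Gldc runs from 0.33 TPM in m3 to 89.7 TPM in whole kidney, while Dld and Gcsh lie between 211 and 317 TPM in all 4 groups.

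The proportions within the complex differed accordingly. In each library Gcsh was divided by Gldc: the quotient had a median of 63.6 in PTS2 (14.7 to 709) and a mean of 3.24 ± 0.834 (SD, n = 3) in kidney. In m3 its median was 499 (131 to 709). There the divisor Gldc was only at 0.33 to 1.71 TPM, with an unknown number of reads, so the quotient is uncertain. Gldc over Amt had a median of 0.625 in PTS2 (0.0448 to 2.47) and a mean of 10.9 ± 2.62 (SD, n = 3) in kidney. Dld over Gcsh was 1.21 ± 0.160 (SD, n = 12) and 1.23 ± 0.143 (SD, n = 3). Thus the quotients that hold Gldc separated the tissues without overlap, and the one that does not was nearly equal in both. In rank by mean TPM among the 47069 genes, Gldc was 8259th in PTS2 and 2073rd in kidney, and Dld 588th and 545th.

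The 2 serine hydroxymethyltransferases differed from kidney in opposite directions. Shmt1, the cytosolic enzyme (minus strand, chr11:60788104-60811718), was at 25.9, 17.8, 24.9 and 30.8 TPM in m1, at 18.4, 18.6, 22.2 and 19.3 TPM in m2 and at 15.1, 8.60, 19.4 and 15.03 TPM in m3. Kidney had 56.2, 52.8 and 57.4 TPM. All 12 tubules were below all 3 kidney libraries. Tubules averaged 19.7 ± 5.77 TPM (SD, n = 12) against 55.5 ± 2.37 TPM (SD, n = 3), with a log2 difference of -1.51 ± 0.24 (limma adjusted p = 5.62e-05).

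Shmt2, the mitochondrial enzyme that works beside the glycine cleavage system (minus strand, chr10:127517123-127522444), was the only member that passed as higher in PTS2. It was at 255, 227, 220 and 271 TPM in m1, at 225, 218, 234 and 267 TPM in m2 and at 227, 206, 231 and 320 TPM in m3. Kidney had 172, 188 and 171 TPM. All 12 tubules were above all 3 kidney libraries. The means were 242 ± 31.7 TPM (SD, n = 12) and 177 ± 9.85 TPM (SD, n = 3), with a log2 difference of 0.44 ± 0.11 (limma adjusted p = 0.00278). Shmt2 was 13.4 ± 4.72 times Shmt1 in PTS2 (SD, n = 12; 8.82 to 23.9) and 3.20 ± 0.320 times in kidney (SD, n = 3), with no overlap. The annotation places a Smcr8 exon over 184 bases of Shmt1 exons and an Ndufa4l2 exon over 32 bases of Shmt2 exons on the opposite strand, and the strand setting of the counting is not given in the sources used here.

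All 3 genes of the serine route were lower in PTS2. Phgdh, whose enzyme commits 3-phosphoglycerate to serine (minus strand, chr3:98313170-98339990), was at 4.03, 2.83, 0.62 and 2.34 TPM in m1, at 4.08, 3.00, 2.24 and 0.65 TPM in m2 and at 0.69, 2.96, 1.51 and 0.83 TPM in m3. Kidney had 17.8, 13.4 and 19.4 TPM. The highest tubule was below the lowest kidney library, and the 3 sets overlapped. The means were 2.15 ± 1.28 TPM (SD, n = 12) and 16.9 ± 3.11 TPM (SD, n = 3), with a log2 difference of -2.61 ± 0.36 (limma adjusted p = 1.45e-05).

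Psat1, the aminotransferase of the second step (minus strand, chr19:15904678-15947337), was at 7.01, 3.59, 5.18 and 12.1 TPM in m1, at 7.22, 5.18, 9.53 and 12.7 TPM in m2 and at 1.95, 3.02, 2.43 and 3.87 TPM in m3. Kidney had 39.9, 31.6 and 46.0 TPM. Every tubule was below every kidney library. The means were 6.15 ± 3.66 TPM (SD, n = 12) and 39.2 ± 7.25 TPM (SD, n = 3), with a log2 difference of -2.64 ± 0.39 (limma adjusted p = 2.92e-05).

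Psph, the phosphatase that releases serine (minus strand, chr5:129765558-129787449), was at 10.8 to 20.3 TPM (median 14.8 TPM) in PTS2 and at 30.6, 26.6 and 27.9 TPM in kidney. The groups did not overlap. The means were 14.5 ± 2.62 TPM (SD, n = 12) and 28.4 ± 2.04 TPM (SD, n = 3), with a log2 difference of -0.94 ± 0.14 (limma adjusted p = 3.60e-05). This value is uncertain, because 452 bases (10.4%) of Psph exons are shared with exons of Cct6a on the opposite strand, and Cct6a averaged 229 TPM in PTS2 against 216 TPM in kidney. Summed, the 3 serine route genes came to 22.8 ± 5.25 TPM (SD, n = 12) per tubule and 84.4 ± 11.4 TPM (SD, n = 3) per kidney library.

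**Figure D2:**
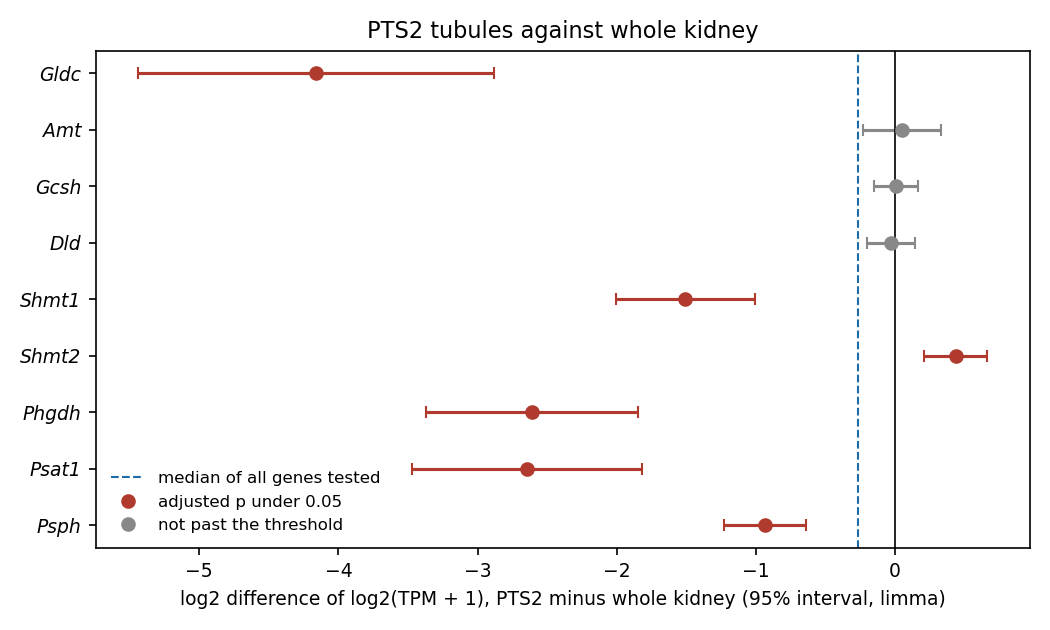
Log2 difference of log2(TPM + 1), PTS2 minus whole kidney, for the 9 members from limma, with 95% intervals; the dashed line is the median of all genes tested, -0.27. Gldc lies lowest at -4.16, Shmt2 lies above zero at 0.44, and the intervals of Amt, Gcsh and Dld cross zero.

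In all, 6 of the 9 members passed the test between PTS2 and kidney, against 51.2% of the 12039 genes tested. Of the members 5 were lower, against 41.5% of all genes, and 1 was higher, against 9.68%. The same 6 showed no overlap between tubules and kidney, as did 32.0% of all genes in the lower direction and 5.76% in the higher. The count of members is thus near that of the whole table, and only sizes set some of them apart. A log2 difference below -2 was found for 3 members (Gldc, Psat1 and Phgdh) and for 6.91% of all genes, and 4.19% or fewer of the genes tested lay below each of these 3. The median over the members was -0.94. Under median-of-ratios rescaling these 6 stayed past the threshold, and the 3 further members joined them on the higher side.

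The order of levels differed between the tissues. In PTS2 it ran Dld, Shmt2, Gcsh, Shmt1, Psph, Amt, Psat1, Gldc and Phgdh. Of these neighbours, Gcsh and Shmt1 and also Psph and Amt did not overlap in range, whereas the ranges of all other neighbours did. In kidney the order was Dld, Gcsh, Shmt2, Gldc, Shmt1, Psat1, Psph, Phgdh and Amt, and no neighbours overlapped. Amt was thus the least abundant member in kidney but not in PTS2, and Gldc stood above Shmt1 and the serine route in kidney and below them, except Phgdh, in PTS2. In m3 the order ended with Amt, Psat1, Phgdh and Gldc.

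The tissue labels were set against markers of nephron segments. The PTS2 libraries held the proximal tubule genes Lrp2, Cubn, Slc34a1, Slc27a2, Slc4a4 and Aqp1 at a sum of 11299 to 16685 TPM, against 9489 to 10467 TPM in kidney. Slc27a2 made up most of the PTS2 sum, at 198% of its kidney level. None of the other genes in that sum was above its kidney mean: they ran from 42.4% (Slc4a4) and 73.7% (Slc34a1) to 99.3% (Aqp1). The S2 organic anion transporters Slc22a6 and Slc22a8 summed to 368 to 1149 TPM in PTS2 and 719 to 781 TPM in kidney. The S3 markers Slc7a13, Slc22a7, Atp11a and Slc5a1 summed to 2512 to 4490 TPM in PTS2, 240% of the kidney mean. The S1 markers Slc5a2, Slc5a12 and Slc2a2 summed to 36.3 to 79.9 TPM in PTS2 and 818 to 892 TPM in kidney, and each of the 3 was lower in every tubule than in every kidney library. Members of these lists differed: of the S2 pair Slc22a6 was at 120% of its kidney level and Slc22a8 at 25.0%, and of the S1 markers Slc2a2 was at 41.7% while Slc5a2 and Slc5a12 averaged 0.698 and 0.103 TPM. These values belong to the same comparison in which Gldc, Psat1, Phgdh and Shmt1 were low. The part of segment make-up in those differences was not tested. Markers of later segments were low in most tubules: the sums for distal convoluted tubule, connecting tubule and intercalated cells were 0.167%, 0.218% and 0.144% of those in kidney. The principal cell sum was higher, at 2.94% of that in kidney, and reached 50.0 TPM in m1 replicate 4. Aqp3 made up most of it, at 13.2% of its kidney level. The endothelial sum was 14.8% of that in kidney. The macrophage sum was 56.6%, of which Csf1r made up most: Csf1r was at 186% of its kidney level, and C1qa, C1qb and Cd68 at 9.93%, 10.5% and 15.9%. The m3 replicate 3 library also held thick ascending limb markers at 1441 TPM, against a median of 10.7 TPM over the 12. Without it the log2 differences from kidney were -4.05 for Gldc, -1.52 for Shmt1, -2.60 for Phgdh, -2.57 for Psat1, -0.91 for Psph and 0.44 for Shmt2, each still past the threshold.

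Among the 3 sets of tubules, Gldc averaged 8.54 ± 5.70 TPM in m1, 4.84 ± 2.499 TPM in m2 and only 0.748 ± 0.650 TPM in m3 (SD over 4 tubules). These are 11.3%, 6.39% and 0.987% of the kidney mean. The mean of m1 was 11.4 times and that of m2 6.48 times that of m3. Without m3 replicate 4, the highest m3 tubule, these ratios were 20.004 and 11.3. Without m1 replicate 4, the highest m1 tubule, the ratio of m1 was 7.66. Without m2 replicate 4, the highest m2 tubule, the ratio of m2 was 5.21. On the log2(TPM + 1) scale the differences were -2.35 ± 0.39 (SE) for m3 minus m1 and -1.70 ± 0.39 for m3 minus m2. Of the 11300 genes tested, 6 had a lower m3 minus m1 value and 29 a lower m3 minus m2 value. In 116 of these genes (1.03%) m3 lay below both other sets without overlap. Because Gldc was chosen by its difference between m3 and m1, these places describe that choice and are not evidence apart from it.

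Without a replicate block, none of the other 8 members passed the limma F test over the 3 sets, which 3.02% of all genes passed. With the replicate number as a block, Psat1 and Shmt1 did pass, as given below under processing. In the fit without it, 4 of the 8 had an unadjusted p under 0.05. The share of all genes at that unadjusted level is not given here, so this count has no background. Psat1 came nearest, with set means, from m1 to m3, of 6.98 ± 3.71, 8.66 ± 3.24 and 2.82 ± 0.827 TPM (SD over 4 tubules; limma F test, adjusted p = 0.0738). Its m3 tubules all lay below its m2 tubules, as in 2.99% of all genes, with a log2 difference of -1.30 ± 0.31 (limma adjusted p = 0.0530), and they overlapped those of m1 (-0.98 ± 0.31, limma adjusted p = 0.118). Leaving out m1 replicate 2 or m1 replicate 4 took Psat1 past the threshold of the F test (limma adjusted p = 0.0387 and 0.0448). Rescaling by median of ratios or by quantiles took its m3 minus m2 difference past the threshold (limma adjusted p = 0.0410 and 0.0403).

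The set means of Shmt1, in the same order, were 24.8 ± 5.35, 19.6 ± 1.78 and 14.5 ± 4.44 TPM (SD over 4 tubules; limma F test, adjusted p = 0.140). Its m3 minus m1 difference was -0.76 ± 0.21 (limma adjusted p = 0.0698). It passed after median-of-ratios rescaling (limma adjusted p = 0.0320), after quantile normalization (0.0267) and without m1 replicate 2 (0.0406). Shmt2 had means of 243, 236 and 246 TPM, and Shmt2 over Shmt1 averaged 10.1, 12.1 and 18.0 in the same order.

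The remaining members differed less. Gcsh averaged 258 ± 6.79, 233 ± 11.8 and 227 ± 12.4 TPM (SD over 4 tubules; limma F test, adjusted p = 0.216). All m3 tubules lay below all m1 tubules for Gcsh, as in 2.67% of genes, and all m2 tubules did so too, as in 2.49% of genes. Psph averaged 17.1 ± 2.17, 13.1 ± 2.11 and 13.4 ± 1.64 TPM, with the m2 tubules below all m1 tubules (limma F test, adjusted p = 0.237). Values for Dld, Phgdh, Amt and Shmt2 overlapped between all sets, with limma F test adjusted p from 0.612 to 0.968. At 4 tubules a set, a p that misses the threshold does not show that levels were equal.

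Gldc, Psat1 and Shmt2 shared a further feature: in each of the 3 sets their highest value was in replicate 4. Of all 11300 genes 541 (4.79%) did so. For Gldc that library held 17.0, 7.69 and 1.71 TPM in m1, m2 and m3. The serine route was not uniform here, since the highest Phgdh tubules were replicates 1, 1 and 2. In each set replicate 4 also had the highest sum of the S2 markers, at 1149, 892 and 1024 TPM, and the lowest sum of the S3 markers, at 2512, 3114 and 3455 TPM. The sums of the S1 markers (79.9, 60.5 and 70.7 TPM) and of principal cell markers (50.0, 21.6 and 30.3 TPM) were highest there too. Each of these sums was mostly 1 gene. Over the 12 tubules Slc2a2 averaged 49.3 TPM of an S1 sum of 50.1 TPM. Aqp3 averaged 18.4 TPM of a principal cell sum of 19.8 TPM. The part of these marker sums in the levels of Gldc, Psat1 and Shmt2 was not tested. Across sets, the S2 sum averaged 810, 588 and 560 TPM from m1 to m3, in the same order as Gldc. Within m3 the S2 sums of replicates 1 to 4 were 370, 401, 446 and 1024 TPM, in the same order as Gldc. They were 704, 623, 762 and 1149 TPM in m1 and 368, 398, 693 and 892 TPM in m2, close to the order of Gldc but not the same. Libraries of different sets could depart from that order. For example, m3 replicate 4 had 1024 TPM of S2 markers and 1.71 TPM of Gldc, and m1 replicate 2 had 623 TPM and 4.37 TPM. The part of segment make-up in the differences between sets was not tested. Without the 3 libraries numbered 4, a choice made after seeing the data, the m3 minus m1 difference of Gldc was -2.22 and that from kidney was -4.43.

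**Figure D3:**
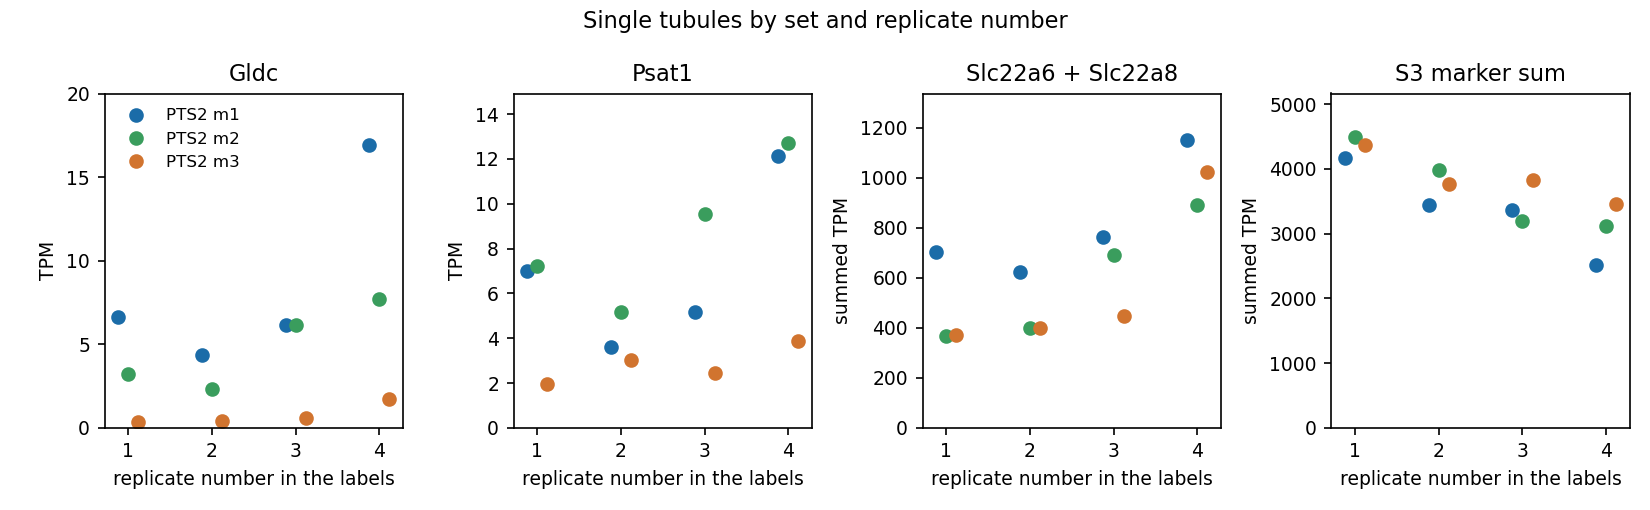
Gldc and Psat1 in TPM, and the summed TPM of S2 markers (Slc22a6 and Slc22a8) and of S3 markers, in each PTS2 library by the replicate number in its label; points are single libraries and colours are sets. In every set the library numbered 4 is highest for Gldc, Psat1 and the S2 sum and lowest for the S3 sum.

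The genes whose log2(TPM + 1) ran most like that of Gldc over the 12 tubules, among 11299 others, were G6pc (Pearson r = 0.973), the glucose-6-phosphatase that releases glucose, Ly96 (0.971), Nat8f2 (0.960), Car14 (0.955), a membrane carbonic anhydrase, and Cpe (0.952), a carboxypeptidase. These coefficients describe 12 libraries that share sets and replicate numbers. G6pc averaged 446 ± 129, 299.6 ± 97.4 and 155 ± 67.4 TPM over the sets from m1 to m3 (SD over 4 tubules) and 377 ± 187 TPM in kidney (SD, n = 3). Unlike Gldc, G6pc was thus about as high in m1 as in kidney. Car14 was at 44.7 ± 15.02, 34.7 ± 17.3 and 10.2 ± 4.90 TPM in the sets and at 184 ± 43.2 TPM in kidney. Among the members, Psat1 was 29th in likeness to Gldc (r = 0.88) and Shmt1 99th (r = 0.80), whereas Dld was at -0.23 and Amt at -0.17. The gene most like each other member was Gm45902 for Amt (r = 0.946), B9d2 for Gcsh (0.925), Bzw1 for Dld (0.982), Slc13a4 for Shmt1 (0.888), 4833439L19Rik for Shmt2 (0.964), Pbk for Phgdh (0.854), Mogat2 for Psat1 (0.917) and Mtx2 for Psph (0.821).

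The neighbouring reactions were followed through 5 lists. Of the folate cycle genes, which carry the carbon unit onward, 17 of 19 were tested: 4 were higher in PTS2, 5 were lower and 8 did not pass, with a median log2 difference of -0.11 against -0.27 for all genes. Higher were the folate carriers Slc46a1 (0.72) and Folr1 (0.49), Fpgs (0.48), which adds glutamate to folate, and Aldh1l1 (0.44), which oxidises formyl-folate. Among the lower were Ggh (-2.06), which removes that glutamate, Mthfd2 (-0.80), Mthfd2l (-0.69) and the mitochondrial folate carrier Slc25a32 (-0.46). After median-of-ratios rescaling the calls of Mthfd2, Mthfd2l and Slc25a32 were lost, and quantile normalization ended the calls of Aldh1l1, Mthfd2 and Mthfd2l and turned Slc25a32 to 0.19 (limma adjusted p = 0.244). Single kidney libraries also decided calls: Aldh1l1 and Mthfd2 lost theirs without kidney replicate 1 or 3, Slc25a32 without 2 or 3, Fpgs without 3 and Mthfd2l without 2.

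GCSH needs lipoate, and DLD serves other lipoyl complexes. All 12 genes of that list were tested: 2 were higher (Bckdha 0.28 and the lipoate synthase Lias 0.25), 3 lower (Bckdhb -1.06, Ogdh -0.43 and Pdhb -0.15) and 7 did not pass, with a median of -0.12. Under median-of-ratios rescaling Ogdh lost its call and Pdhb turned to 0.14 (limma adjusted p = 0.0413). The calls of Lias and Pdhb were lost without kidney replicate 1 or 3.

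Of the other reactions of glycine and serine, 21 of 25 genes were tested: 11 were higher, 2 lower and 8 did not pass, with a median of 0.49. Among the higher were Dmgdh (1.18) of choline breakdown, the homocysteine methyltransferase Bhmt2 (1.06), Cbs (1.13), which joins serine to homocysteine, and Gss (1.02), Gclm (0.91) and Gclc (0.80) of glutathione synthesis; the call of Gclc was lost without any one of the 3 kidney libraries. Lower were Gcat (-1.42), which forms glycine from threonine, and Gatm (-8.19), which uses glycine to start creatine synthesis and was on average at 3.34 TPM in PTS2 against 1181 TPM in kidney.

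Of the transporters of glycine and serine, 12 of 15 were tested: 5 were higher, 3 lower and 4 did not pass, with a median of 0.13. Higher were Slc38a3 (1.53), Slc1a4 (1.10), the glycine carrier Slc6a18 (1.02), Slc6a20a (0.56) and Slc6a20b (0.52). Lower were the neutral amino acid carrier Slc6a19 (-4.44), at 10.6 TPM in PTS2 against 251 TPM in kidney, Slc1a5 (-3.85) and Slc38a2 (-1.68). The call of Slc6a20a was lost without kidney replicate 1 or 3.

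ATF4, a transcription factor of amino acid shortage, is known to drive Phgdh, Psat1 and Shmt2, so 16 further genes of its response were listed. Of the 11 tested, 1 was higher (Cebpb 0.73), 5 were lower (Nupr1 -5.17, Slc3a2 -2.19, Ddit3 -1.02, Gars -0.26 and Eprs -0.24) and 5 did not pass, with a median of -0.26, near that of all genes. Median-of-ratios rescaling turned Gars to 0.03 and Eprs to 0.04 (limma adjusted p = 0.789 and 0.671), and the call of Eprs was lost without any one kidney library, any one m2 library, m1 replicate 3 or 4, or m3 replicate 2.

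**Figure D4:**
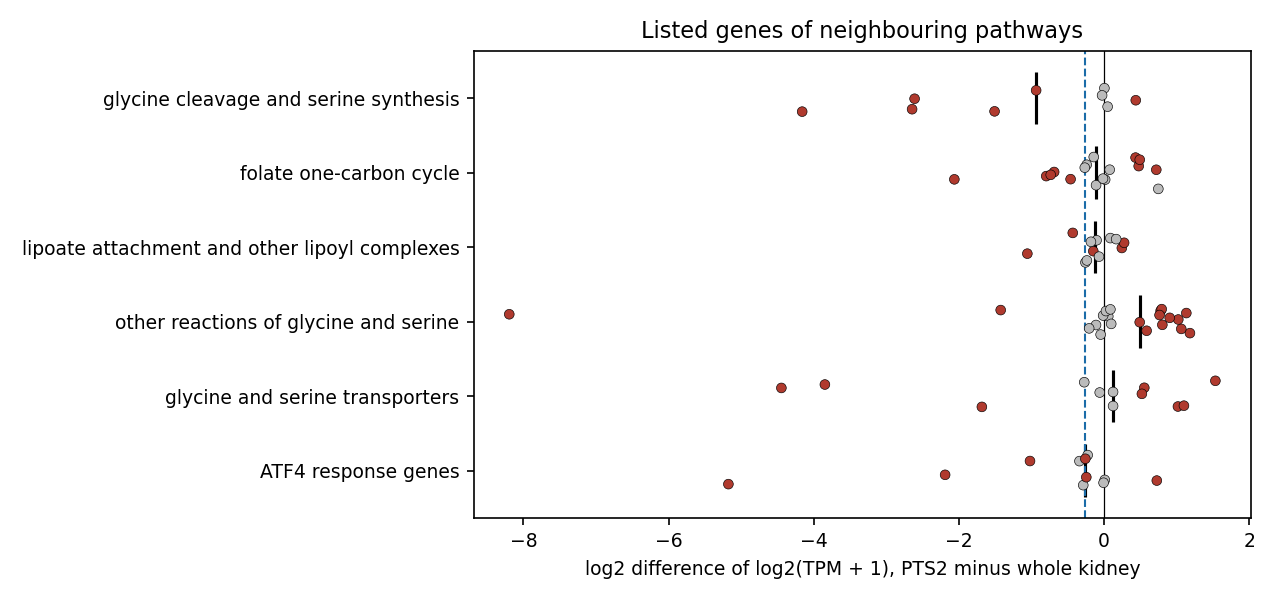
Log2 difference, PTS2 minus whole kidney, of every tested gene of the 5 lists and of the members, with 1 point per gene, coloured by whether it passed the threshold; the short lines are list medians. The other reactions of glycine and serine have the highest median, 0.49, while Gatm lies at -8.19.

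Of the 72 genes of these lists tested among the sets, 5 passed the limma F test, beside 3.02% of all genes. The lists were chosen with earlier results of these data known, and the difference between these shares was not tested. Alas1, which uses glycine to start haem synthesis, averaged 335, 267 and 593 TPM from m1 to m3 (limma F test, adjusted p = 3.78e-05). It was higher in m3 by 0.81 ± 0.09 than in m1 and by 1.15 ± 0.09 than in m2 (limma adjusted p = 0.000470 and 1.67e-05). Gamt, which completes creatine synthesis, was lower in m3, at 65.6, 82.1 and 47.4 TPM (limma F test, adjusted p = 0.00185), with -0.46 against m1 and -0.79 against m2. Atf4 was at 37.8, 51.9 and 36.6 TPM (limma F test, adjusted p = 0.0121), with -0.49 for m3 minus m2. The other 2 were Slc25a32 and Slc3a2 (limma F test, adjusted p = 0.0438 and 0.0451).

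In the pair of m3 and m1, in which Gldc was described, 3.17% of the genes tested passed. From the lists Slc25a32 (0.56), Aldh1l1 (0.49), Alas1 and Cbs (0.73) were higher in m3, as were 2.23% of all genes, and Gamt, Slc3a2 (-0.79) and Sesn2 (-0.74) were lower, as were 0.938%. The call of Alas1 held on leaving out any 1 of the 12 tubules. That of Slc25a32 was lost for 4 of the 12, of Aldh1l1 for 8, of Cbs for 6, of Gamt for 4, of Slc3a2 for 5 and of Sesn2 for 11, with limma adjusted p up to 0.0717, 0.108, 0.0995, 0.0922, 0.0766 and 0.136. In m3 against m2, where 1.97% of genes passed (1.17% higher and 0.805% lower), Alas1, Gamt and Atf4 did (Atf4 not without m2 replicate 2, m2 replicate 3 or m3 replicate 1), and in m2 against m1, where 0.540% passed, no listed gene did. By set mean, Alas1 was thus highest and Gldc lowest in m3. They did not run opposite throughout: both means were lower in m2 than in m1. Within m3 both were highest in replicate 4. Gldc was chosen by its difference between m3 and m1, so this contrast is a description.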

How the data were processed

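RNA of single microdissected tubules and of whole kidney was amplified with a SMART-Seq v4 Ultra Low Input kit and sequenced on an Illumina HiSeq instrument, per the labels' protocols. Per the submitters' processing notes, STAR 2.5.1b, RSEM 1.2.31 and the build GRCm38.p5 were used; the annotation release and the strand setting are not given in the sources used here. The authors deposited 1 table of TPM, which sum to 1000000 in each library, so depth is unknown and no interval on counts is given. Its 4 columns of means and errors went unused.

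Groups follow the labels. Values were taken as log2(TPM + 1) and fitted with limma 3.58.1 (R 4.3.3, eBayes with trend) over genes averaging 1 TPM or more. PTS2 was compared with kidney over 15 libraries, the set entering as a correlated block (correlation 0.0669), and the 3 sets over the 12 tubules, without a replicate block. The fits were tested on simulated data. Calls are Benjamini-Hochberg adjusted p under 0.05 over all genes. The members and lists were chosen with earlier results of these data known. Named are all members, the genes of each list past the threshold (at most 6 a direction; 1 folate cycle gene is counted but not reported here), the 5 genes most like Gldc and the first for each other member. Positions come from GENCODE M21, which 46488 of the 47069 gene IDs (98.8%) matched, and upstream letters from RefSeq, which held all 9 members. Alternatives were the pseudocount, the filter, 2 rescalings, mitochondrial genes left out, other blocks and each library left out.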

Additional observations from a re-analysis of the deposited data

Results flagged for a closer look

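In each PTS2 set of 4 tubules, the members and the named genes of lists and of likeness (62 genes, 186 groups of 4) were searched for a library far from the other 3. Dixon's 95% criterion found 10, where chance gives 1 in 20 groups, or 9.3. Among the 27 groups of members it found 1: Dld, whose product completes the glycine cleavage cycle, was at 316.73 TPM in m3 replicate 4, with the next m3 tubule at 289.87 TPM.

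In m3 replicate 4 the glycine user Alas1 was at 703.08 TPM (next 561.33), and genes most like Gldc or Shmt2 also stood apart: G6pc at 255.67 TPM (next 121.2), Cpe at 53.69 TPM (next 18.22) and 4833439L19Rik at 1633.53 TPM (next 1111.54). G6pc was also high in m1 replicate 4, at 636.62 TPM (next 399.95). So 6 of the 10 values lay in libraries numbered 4. G6pc, Cpe and 4833439L19Rik were picked for likeness to Gldc or Shmt2, which were themselves highest in those libraries. Their values are therefore not separate evidence about libraries numbered 4.

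The transporter Slc1a5 was at 10.9 TPM in m3 replicate 3 (next 1.25), the library with 1441 TPM of thick ascending limb markers. In m1 the folate hydrolase Ggh was low in replicate 2, at 2.3 TPM (next 4.58), and the transporter Slc38a2 was high in replicate 1, at 10.85 TPM (next 4.88). Mtx2, the gene most like Psph, was low in m3 replicate 1, at 60.84 TPM (next 68.38).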

How the results depend on the processing

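Of 908 values of the members under an alternative, 848 kept their direction and side of the threshold, and the 6 members past the threshold between PTS2 and kidney stayed so under every alternative run. Depth is unknown, so how many reads stand behind Gldc at 0.33 to 0.57 TPM in m3 cannot be said. A pseudocount of 0.1 took Gldc to -3.41 (m3 minus m1) and -2.65 (m3 minus m2). The cause of the changes below was not tested, except that the filters change how many genes are tested.

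Without a filter 9399 genes passed between PTS2 and kidney, 196 over the sets, 178 in m3 against m1 and 111 in m3 against m2; with at least 10 TPM, 3113 passed between PTS2 and kidney. In m2 against m1, median-of-ratios rescaling gave 105 and quantile normalization 106 genes in place of 61. The share of calls higher in PTS2 was 18.9% in TPM, 49.7% after median-of-ratios rescaling and 64.4% after quantile normalization, and that of calls higher in m3 than in m1 was 70.4%, 54.5% and 52.8%. Without the 3 libraries numbered 4, chosen after seeing the data, 37, 182 and 146 genes passed in m2 against m1, m3 against m1 and m3 against m2.

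Same-numbered tubules correlated in their deviations by 0.0254 to 0.273, over 0.1 in 7 of 12 pairs. Their mean correlation was 0.143, against -0.0481 for other pairs, and 10 of 12 libraries correlated best with their own number. The labels do not say that equal numbers pair tubules, so the main fit used no replicate block. With a replicate block 888 genes and 2 members other than Gldc passed over the sets (Psat1, adjusted p = 0.00806, and Shmt1, 0.0237, limma), and 307, 838 and 416 genes in m2 against m1, m3 against m1 and m3 against m2.

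Leaving out each library gave 4761 to 6712 genes between PTS2 and kidney, 197 (without m3 replicate 1) to 563 (without m1 replicate 1) over the sets, with 0 to 1 member other than Gldc, 37 (without m2 replicate 2) to 135 (without m1 replicate 1) in m2 against m1, 160 (without m3 replicate 3) to 771 (without m1 replicate 1) in m3 against m1, and 119 (without m2 replicate 2 or m3 replicate 1) to 313 in m3 against m2.

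Directions turned only for differences that had not passed, apart from Pdhb, Gars, Eprs and Slc25a32. Median-of-ratios rescaling gave Dld 0.27, Pdhb 0.14, Gars 0.030 and Eprs 0.043 between PTS2 and kidney, Phgdh -0.0076 (m2 minus m1), and Dld -0.034, Shmt2 -0.0090 and Psph -0.010 (m3 minus m2). Quantile normalization gave Gcsh -0.023 and Slc25a32 0.19 between PTS2 and kidney, Amt -0.021 and Phgdh -0.022 (m2 minus m1) and Psph -0.0089 (m3 minus m2). Without mitochondrial genes Gcsh was at -0.0089 between PTS2 and kidney. Without the libraries numbered 4, Amt was at -0.036 (m2 minus m1), Dld at -0.015 and Shmt2 at -0.032 (m3 minus m2). Leaving out each library took the difference between PTS2 and kidney across zero for Amt (-0.0034 to 0.10), Gcsh (-0.061 to 0.086) and Dld (-0.043 to 0.0058). It did so for m2 minus m1 of Amt (-0.070 to 0.14), Shmt2 (-0.10 to 0.011) and Phgdh (-0.31 to 0.34), for m3 minus m1 of Shmt2 (-0.13 to 0.077), and for m3 minus m2 of Amt (-0.0077 to 0.16), Dld (-0.018 to 0.041), Shmt2 (-0.092 to 0.12) and Psph (-0.045 to 0.11).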
